A study of Mus musculus with 6 samples.

Results

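The 93 genes described here are those of the mouse gene table whose symbol is Gpr followed by a number and at most 1 letter, out of 23284 genes counted in each library. The rule left out 1 further symbol of this form. The rule names symbols and no measured value, and it was written with earlier results of these data known. Most of these symbols belong to seven-pass membrane receptors that couple to heterotrimeric G proteins, and many were named as orphans before a ligand was known. Another symbol is current in RefSeq for 21 of the 93, such as Ptgdr2 for Gpr44 and Adgrg1 for Gpr56, and some, such as Gpr89 and Gpr172b, encode membrane proteins that are not classical receptors.

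Receptors of this kind pass a signal from lipids, protons, peptides or neighbouring cells to G proteins, which act on adenylyl cyclases and phospholipases. In T cells the Gi class directs migration, and the Gs class raises cyclic AMP, which dampens signalling from the antigen receptor. RGS proteins switch G proteins off, and receptor kinases with arrestins silence the receptors themselves. Adhesion receptors, a family of their own, carry long extracellular regions that bind other cells or matrix.

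RNA was sequenced from T cells sorted from lymph nodes of the mouse strain C3H/HeJ, an inbred strain in which the autoimmune hair loss disease alopecia areata arises. The NKG2D+ group held CD3+CD8+CD44+CXCR3+NKG2D+ cells and the NKG2D- group CD3+CD8+CD44+CXCR3+NKG2D- cells, 3 libraries each. Both groups thus share the surface marks of antigen-experienced CD8 T cells and differ in the activating receptor NKG2D, whose gene is Klrk1. The series description says that the cells came from 3 separate mice. The sources used here do not give age, treatment or disease state of the mice.

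Gene counts per library ran from 63232698 to 89184611 in the NKG2D+ and from 41168816 to 67315805 in the NKG2D- cells. Levels are given as CPM, read counts scaled to the size of each library. Klrk1 stood at 312 to 409 CPM in the NKG2D+ and 34.5 to 37.1 CPM in the NKG2D- libraries. The summed level of 7 CD8 T-cell markers was 3345 to 5014 CPM in the NKG2D+ and 3444 to 3701 CPM in the NKG2D- libraries, and 0 of them passed the test. Marker genes of other cells were present as well. The summed level of 10 B-cell markers was 386 to 598 CPM in the NKG2D+ and 109 to 278 CPM in the NKG2D- libraries, highest in NKG2D+ library 1. All 10 had a positive log2 fold change, and 0 of them passed the test. The sum of 14 myeloid and dendritic markers was 18.2 to 35.5 CPM in the NKG2D+ and 14.3 to 15.8 CPM in the NKG2D- libraries. In NKG2D+ library 1 it was mostly Xcr1 and Lyz2, at 14.6 and 11.6 CPM. Of these markers 12 were tested, 8 had a positive log2 fold change and 0 passed. Among those that went the other way, Clec9a had a log2 fold change of -1.55 and Siglech of -1.21. The sum of 5 plasma cell markers was 55.7 to 144 CPM in the NKG2D+ and 49.3 to 55.2 CPM in the NKG2D- libraries. That of 3 gamma-delta and NKT markers was 0.916 to 1.67 CPM in the NKG2D+ and 0.529 to 0.624 CPM in the NKG2D- libraries. Neither of these sums overlapped between the groups. The plasma cell sum was mostly Irf4 and Xbp1, at 64.8 and 77.1 CPM in NKG2D+ library 1. Igj overlapped, at 0.759 to 3.19 CPM in the NKG2D+ and 0.529 to 3.15 CPM in the NKG2D- libraries. Sdc1 and Tnfrsf17 stood at 0.639 CPM or less. Of the plasma cell markers 4 were tested, 4 rose in log2 fold change and 0 passed. Sums of the CD4 and regulatory T-cell markers overlapped, at 48.2 to 100.2 CPM in the NKG2D+ and 73.5 to 84.7 CPM in the NKG2D- libraries. Members of this sum went opposite ways, with 1 of 5 log2 fold changes positive and 0 passing. Foxp3 stood at 2.45 to 7.27 CPM in the NKG2D+ and 14.4 to 20.8 CPM in the NKG2D- libraries. Zbtb7b stood at 33.0 to 53.0 CPM in the NKG2D+ and 18.7 to 27.3 CPM in the NKG2D- libraries. In sorted bulk cells, fewer cells of a kind and less RNA per cell cannot be told apart.

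Of the 93 genes, 33 were detected with a mean of at least 0.5 CPM over all 6 libraries, and 23 of these reached 5 CPM. A further 6 passed the filter on low counts below that level, so 39 were tested. Among the remaining 54 genes, 14 had 0 counts in all 6 libraries, among them Gpr6, Gpr12, Gpr17, Gpr20, Gpr37, Gpr39, Gpr50, Gpr81, Gpr115, Gpr119, Gpr139, Gpr158 and Gpr161. A count of 0 allows a level of up to 0.0335 CPM in the deepest and 0.0756 CPM in the shallowest library. Another 20 had between 1 and 10 counts in all, and 20 had more but stayed under the filter, none of them above a mean of 0.197 CPM.

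**Figure D1:**
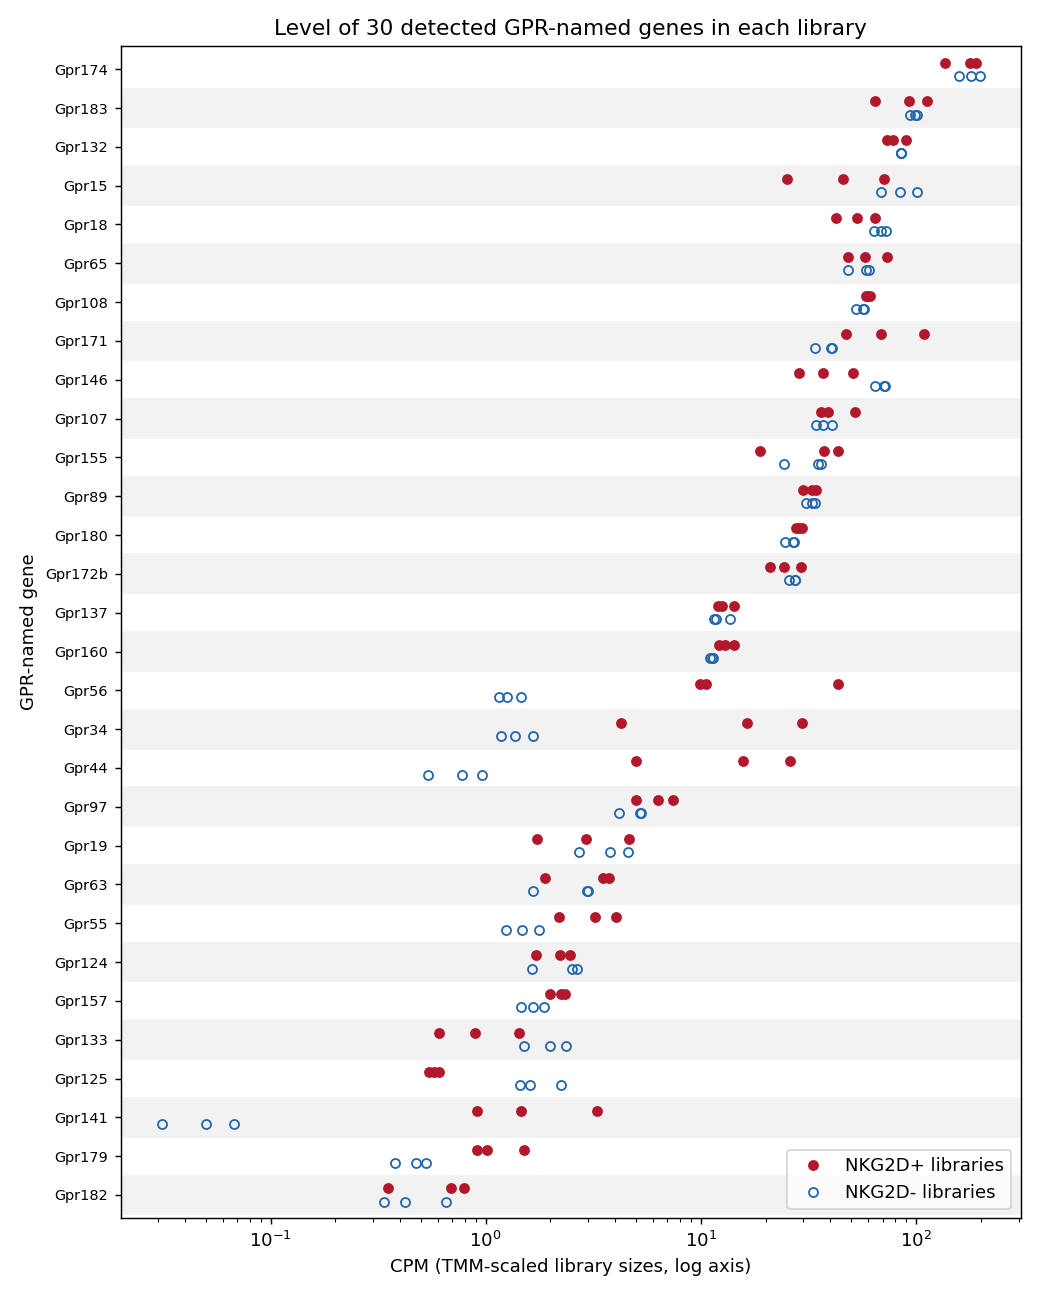
Each row is 1 of 30 of the 33 detected genes, and each point is 1 library on a log axis of CPM, with NKG2D+ libraries filled and NKG2D- libraries open. Gpr56, Gpr44, Gpr34 and Gpr141 have NKG2D+ points far to the right of the NKG2D- points, while Gpr174, Gpr183 and Gpr132 overlap. Gene length is not corrected for.

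Between NKG2D+ and NKG2D- cells, Gpr56, Gpr44 and Gpr141 were higher and Gpr125 was lower in NKG2D+ cells, past the threshold of 0.05 on the adjusted p. The rises were 16.6-fold for Gpr56, 20.7-fold for Gpr44 and 37.0-fold for Gpr141, and Gpr125 was 3.04-fold lower. These 4 are 10.3% of the 39 tested genes, where 2.02% of all 12951 tested genes passed in either direction, 1.65% higher and 0.363% lower in NKG2D+ cells. Unless another tool is named, p-values come from edgeR's quasi-likelihood test with Benjamini-Hochberg adjustment over all 12951 genes tested. The filter let genes in through 1 group where they were high, as it did Gpr141, so this share is a description. The other 35 tested genes did not pass. The median log2 fold change was 0.07 over the 39 genes and -0.01 over all tested genes. The median size of the change, whatever its sign, was 0.35 over the 39 genes and 0.16 over all tested genes.

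Ranges of the NKG2D+ and NKG2D- libraries did not overlap for 17 of the 39 genes. In 12 every NKG2D+ library was the higher (30.8%, where 15.1% of all tested genes were so), and in 5 the lower (12.8%, against 14.1% of all tested genes). An unadjusted p under 0.05 was reached by 14 of the 39, or 35.9%, against 21.1% of all tested genes.

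**Figure D2:**
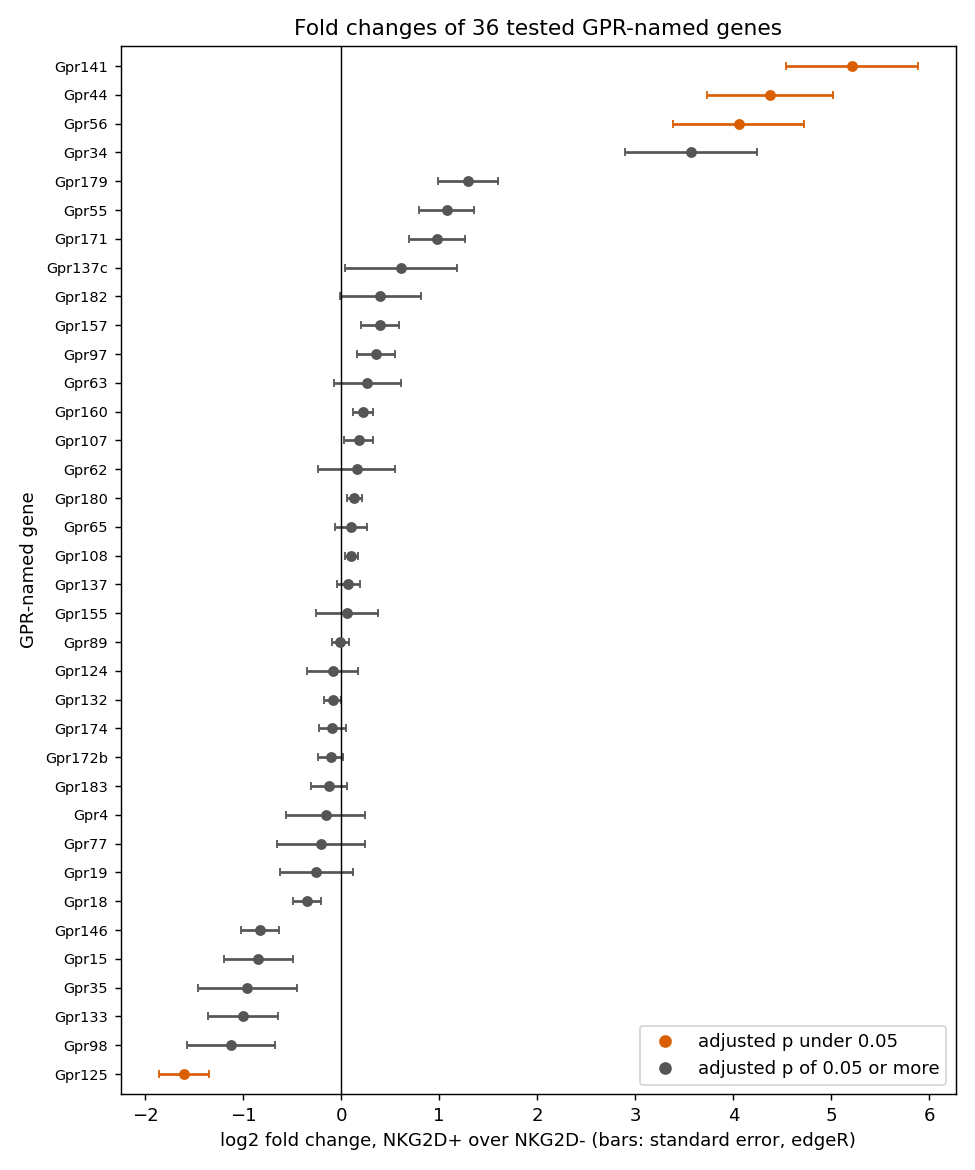
Points are log2 fold changes of NKG2D+ over NKG2D- cells for 36 of the 39 tested genes, with the standard error as bars. Coloured points are the 4 genes that passed, from 5.21 for Gpr141 to -1.60 for Gpr125, and most of the rest lie within 1 log2 unit of 0.

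Gpr56, now named Adgrg1, is an adhesion receptor known from human NK cells and cytotoxic T cells. It stood at 10.6, 9.88 and 43.6 CPM in NKG2D+ libraries 1 to 3, against 1.46, 1.15 and 1.26 CPM in NKG2D- libraries 1, 2 and 3. The groups did not overlap, and NKG2D+ library 3 was the highest by far. The means were 21.4 ± 19.3 CPM in the NKG2D+ and 1.29 ± 0.158 CPM in the NKG2D- cells (SD, n = 3 each). By edgeR the log2 fold change was 4.05 (SE 0.67, adjusted p = 0.0391). It was 2.99 with NKG2D+ library 3 left out (adjusted p = 0.0312) and 4.38 with NKG2D+ library 1 left out (adjusted p = 0.0627). With the replicate number as a block the adjusted p was 0.0770. The summed level of 6 NK-cell markers was 6.66, 19.4 and 17.5 CPM in the NKG2D+ and 2.32, 3.65 and 4.19 CPM in the NKG2D- libraries, with Klra4 at 0 counts and Klra8 at or near 0 in all. Of these markers Klre1 passed the test. Their part in the rise of Gpr56 was not tested.

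Gpr44, now named Ptgdr2, encodes the prostaglandin D2 receptor CRTH2, known from type 2 helper T cells and eosinophils. It stood at 26.0, 5.004 and 15.8 CPM in NKG2D+ libraries 1, 2 and 3 and at 0.957, 0.541 and 0.780 CPM in the NKG2D- libraries. Every NKG2D+ library was above every NKG2D- library, with library 2 the lowest of its group in both populations. The log2 fold change was 4.37 (SE 0.64, adjusted p = 0.0323), and within same-numbered pairs the log2 ratio was 4.76, 3.21 and 4.34. Gpr44 was the 1 GPR-named gene that also passed with the replicate block (adjusted p = 0.0412). In the GRCm38 RefSeq table Gpr44 overlaps Ccdc86. Ccdc86 stood at 29.0 ± 2.32 CPM in the NKG2D+ and 28.1 ± 2.07 CPM in the NKG2D- cells, without passing (log2 fold change 0.05, adjusted p = 0.821). The B-cell, myeloid and plasma cell marker sums were likewise highest in NKG2D+ library 1 and lowest in library 2 of that group. The CD8, the CD4 and regulatory, and the gamma-delta and NKT sums had the same order, as had Klrk1 and Cd44. In NKG2D+ libraries 1 to 3 the CD8 sum was 5014, 3345 and 3375 CPM. Klrk1 stood there at 409, 312 and 342 CPM. The NK-cell and stromal sums did not have this order. The plasma cell sum was mostly Irf4 and Xbp1, while Igj was highest in NKG2D+ library 3. The part of other cells in the rise of Gpr44 was not tested.

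Gpr141 is an orphan receptor. It was a scarce transcript, with 60, 131 and 254 counts in NKG2D+ libraries 1 to 3, against 2, 4 and 2 counts in the NKG2D- libraries. These equal 0.912, 1.46 and 3.29 CPM in the NKG2D+ and 0.0504, 0.0676 and 0.0312 CPM in the NKG2D- libraries. From the summed counts, 445 in the NKG2D+ and 8 in the NKG2D- cells, the ratio of levels was 39.0, with an exact 95% interval from 19.6 to 90.9 that covers counting error only. The fitted log2 fold change was 5.21 (SE 0.67, adjusted p = 0.0220), and with the block the adjusted p was 0.0518. Like Gpr56, Gpr141 was highest in NKG2D+ library 3, and without that library its log2 fold change was 4.54 (adjusted p = 0.0576).

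Gpr125, now named Adgra3, is an adhesion receptor without an established ligand, and it was the 1 gene to fall. It stood at 0.578, 0.547 and 0.609 CPM in NKG2D+ libraries 1 to 3, against 2.24, 1.61 and 1.45 CPM in the NKG2D- libraries. The NKG2D+ libraries were close together and all below the NKG2D- libraries, of which library 1 was the highest. The log2 fold change was -1.60 (SE 0.26, adjusted p = 0.0358, and 0.0779 with the block). In same-numbered pairs the log2 ratio was -1.96, -1.55 and -1.25. The sum of 6 stromal and endothelial markers, mostly Pecam1, was 52.6 to 54.3 CPM in the NKG2D+ and 68.5 to 70.0 CPM in the NKG2D- libraries. Of these markers 3 were tested and 3 passed by edgeR. Pecam1 fell (adjusted p = 0.0240), and Col1a1 (adjusted p = 0.0339) and Pdgfrb (adjusted p = 0.0248) rose. Their part in the fall of Gpr125 was not tested.

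Each of the 4 calls was lost when some single library was left out. Without NKG2D- library 1, 2 or 3 the adjusted p was 0.192, 0.151 and 0.215 for Gpr56 and 0.158, 0.138 and 0.197 for Gpr44. For Gpr141 it was 0.146, 0.112 and 0.154, and for Gpr125 0.157, 0.133 and 0.158. Without NKG2D+ library 3 it was 0.108 for Gpr44 and 0.135 for Gpr125. Over all genes, 8 to 21 genes passed without 1 NKG2D- library. Log2 fold changes moved less, within 2.99 and 4.40 for Gpr56, 3.79 and 4.80 for Gpr44, 4.54 and 5.54 for Gpr141, and -1.73 and -1.40 for Gpr125. DESeq2 called all 4, with adjusted p-values from 2.75e-10 for Gpr141 to 1.63e-05 for Gpr125.

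The number of GPR-named genes called under each setting, out of those tested, stands here beside the share of all genes called. DESeq2 called 10 of 46, where it called 10.5% of all genes. The replicate block left 1 of 39, where 0.525% of all genes passed, and limma-voom 0 of 39, where 0.641% passed. With the size factors of DESeq2 in edgeR it was 4 of 39 (1.9% of all genes), and with no filter 2 of 79 (1.28%). Without NKG2D+ library 1, 2 or 3 it was 5 of 43, 12 of 43 and 1 of 40. Of all genes 4.13%, 9.96% and 0.115% passed in these fits. Without NKG2D- library 1, 2 or 3 it was 0 of 44, 0 of 43 and 0 of 44, where 0.158%, 0.0981% and 0.0607% of all genes passed.

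**Figure D3:**
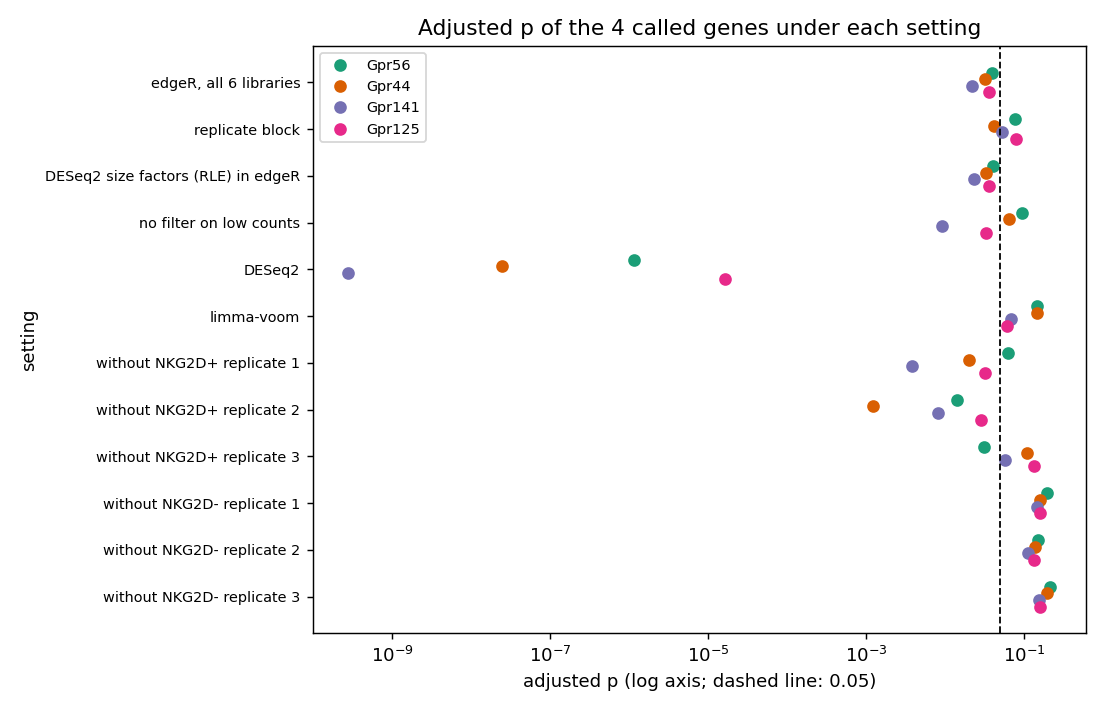
The adjusted p of Gpr56, Gpr44, Gpr141 and Gpr125 is drawn on a log axis for each setting, with the threshold of 0.05 as a dashed line. DESeq2 lies far to the left, while limma-voom and the fits without an NKG2D- library place all 4 genes to the right of the line.

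The promoters of the 4 genes are shown because their transcripts differed between the sorted cells. Each is 250 bases before to 50 after a RefSeq transcript start in GRCm38.p6, a C57BL/6J genome, written 5′ to 3′ on the gene's strand, and Gpr56 has 2 such starts. Capitals mark matches on either strand to the T-box letters GGTGTGA, the RUNX letters TGTGGT, the AP-1 letters TGANTCA and the GC box letters GGGCGG, none of which overlap here.
Gpr56, upstream start, chr8:94976859-94977158, plus strand: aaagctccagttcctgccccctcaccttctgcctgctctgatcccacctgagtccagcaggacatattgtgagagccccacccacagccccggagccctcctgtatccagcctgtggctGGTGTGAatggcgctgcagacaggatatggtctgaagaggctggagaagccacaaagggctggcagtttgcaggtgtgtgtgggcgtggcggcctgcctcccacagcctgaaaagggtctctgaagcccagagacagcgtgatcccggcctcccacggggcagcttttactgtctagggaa
Gpr56, downstream start, chr8:94984149-94984448, plus strand: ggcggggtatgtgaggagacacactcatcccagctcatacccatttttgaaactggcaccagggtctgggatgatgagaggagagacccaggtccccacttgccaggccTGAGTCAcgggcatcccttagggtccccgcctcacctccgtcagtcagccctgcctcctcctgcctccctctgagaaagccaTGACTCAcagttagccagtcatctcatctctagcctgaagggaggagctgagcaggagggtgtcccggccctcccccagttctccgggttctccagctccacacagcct
Gpr44, chr19:10936910-10937209, plus strand: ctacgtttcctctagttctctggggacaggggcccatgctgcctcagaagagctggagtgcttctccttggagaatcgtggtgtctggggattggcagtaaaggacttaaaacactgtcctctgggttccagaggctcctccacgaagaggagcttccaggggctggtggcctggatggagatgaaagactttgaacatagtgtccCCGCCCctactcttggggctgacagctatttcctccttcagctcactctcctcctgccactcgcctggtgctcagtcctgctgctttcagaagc
Gpr141, chr13:19824208-19824507, minus strand: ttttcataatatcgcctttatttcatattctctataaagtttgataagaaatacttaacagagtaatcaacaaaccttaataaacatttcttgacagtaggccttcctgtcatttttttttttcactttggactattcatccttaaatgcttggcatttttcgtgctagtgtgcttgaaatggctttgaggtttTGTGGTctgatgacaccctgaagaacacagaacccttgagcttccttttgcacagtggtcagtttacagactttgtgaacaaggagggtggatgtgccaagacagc
Gpr125, chr5:50058947-50059246, minus strand: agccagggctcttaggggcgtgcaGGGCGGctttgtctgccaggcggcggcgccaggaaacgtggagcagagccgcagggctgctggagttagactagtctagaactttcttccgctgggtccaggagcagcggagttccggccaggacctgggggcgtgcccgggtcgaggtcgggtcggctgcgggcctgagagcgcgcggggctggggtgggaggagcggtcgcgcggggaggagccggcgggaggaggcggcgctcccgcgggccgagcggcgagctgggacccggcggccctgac

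The upstream Gpr56 window held 1 T-box match, 131 bases before the start, and the downstream window 2 AP-1 matches, 141 and 59 bases before it. The Gpr141 window held 1 RUNX match, 56 bases before the start. The Gpr44 and Gpr125 windows held 1 GC box match each. Over all 32851 promoters of this length, 3.98% held the T-box letters, 16.8% the RUNX letters, 7.81% the AP-1 letters and 35.7% the GC box letters. Over the 44 promoters found for 31 of the 39 tested genes, the shares were 4.55%, 27.3%, 9.09% and 38.6%, in the same order of motifs. A match is a description of letters and does not show that a factor binds. The GC content of the windows was 74.0% for Gpr125, 56.0% for Gpr44 and 37.3% for Gpr141.

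Gpr97, another adhesion receptor gene, now named Adgrg3, lies on mouse chromosome 8 as Gpr56 does. It stood at 6.34, 5.01 and 7.46 CPM in the NKG2D+ and at 4.16, 5.22 and 5.29 CPM in the NKG2D- libraries (log2 fold change 0.36, SE 0.19, adjusted p = 0.352). The ranges overlapped, and the difference between the fold changes of both genes was not tested. Its promoter is shown for comparison with those of Gpr56, with the same letters in capitals.
Gpr97, chr8:95017442-95017741, plus strand: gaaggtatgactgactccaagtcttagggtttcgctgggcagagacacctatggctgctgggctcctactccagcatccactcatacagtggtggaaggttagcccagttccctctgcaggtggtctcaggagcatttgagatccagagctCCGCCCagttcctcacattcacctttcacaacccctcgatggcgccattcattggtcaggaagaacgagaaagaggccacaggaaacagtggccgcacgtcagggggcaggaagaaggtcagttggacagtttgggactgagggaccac

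The Gpr97 window held 1 GC box match. It did not hold the T-box or AP-1 letters found at Gpr56. Among the other adhesion receptors, Gpr133, now Adgrd1, averaged 0.977 ± 0.417 CPM in the NKG2D+ and 1.96 ± 0.429 CPM in the NKG2D- cells (SD, n = 3 each, adjusted p = 0.176). Its ranges did not overlap, and without NKG2D+ library 2 the adjusted p was 0.0447. Gpr133 did not pass with any other library left out (0.238 to 0.409), with the replicate block (0.104), by DESeq2 (0.0710) or by limma-voom (0.173). Gpr124, known for its part in growth of brain vessels, averaged 2.13 ± 0.378 in the NKG2D+ and 2.27 ± 0.549 CPM in the NKG2D- cells. Gpr98, now Adgrv1, an adhesion receptor known from the inner ear and retina, was tested at 0.104 to 0.235 CPM in the NKG2D+ and 0.296 to 0.575 CPM in the NKG2D- libraries (unadjusted p = 0.0399, adjusted p = 0.215 by edgeR). In all, 8 of 16 adhesion receptors were tested, of which 1 rose and 1 fell, where 1.65% of all tested genes rose and 0.363% fell.

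Gpr65, Gpr132 and Gpr4 encode receptors grouped by their response to acid. Gpr65, whose product is coupled to cyclic AMP, averaged 59.9 ± 12.6 CPM in the NKG2D+ and 55.7 ± 6.34 CPM in the NKG2D- cells. Gpr132, whose product also responds to oxidised fatty acids, averaged 80.4 ± 8.61 CPM in the NKG2D+ and 85.5 ± 0.0433 CPM in the NKG2D- cells (SD, n = 3 each). Their adjusted p-values were 0.766 and 0.622, and the sign for Gpr65 turned without NKG2D+ library 1. Gpr4 was tested at 0.190 to 0.365 CPM in the NKG2D+ and 0.234 to 0.453 CPM in the NKG2D- libraries.

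Of 11 receptors for lipids and metabolites 7 were tested, and 0 passed by edgeR, where 2.02% of all tested genes passed. An unadjusted p under 0.05 was reached by 4 of the 7 (21.1% of all tested genes), and DESeq2 called 3, Gpr34, Gpr171 and Gpr55 (10.5% of all genes). Gpr171, whose described ligand is a neuropeptide, is counted in this group. Gpr34 and Gpr174 both encode receptors for lysophosphatidylserine. Gpr34 stood at 29.5, 4.27 and 16.5 CPM in NKG2D+ libraries 1 to 3, against 1.18, 1.66 and 1.37 CPM in the NKG2D- libraries. All NKG2D+ libraries were above all NKG2D- libraries, library 1 most and library 2 least, as for Gpr44. The log2 fold change was 3.57 (SE 0.68) with an adjusted p of 0.0544. Gpr34 passed without NKG2D+ library 2, at 4.02 (adjusted p = 0.00122), and by DESeq2 (adjusted p = 7.1e-05). It did not pass without NKG2D+ library 1, at a smaller 2.87 (adjusted p = 0.0582), with the block (0.117), by limma-voom (0.216) or without 1 NKG2D- library (0.168 to 0.253). Cask, within which Gpr34 lies in the RefSeq table, stood at 3.35 ± 0.380 CPM in the NKG2D+ and 4.31 ± 0.572 CPM in the NKG2D- cells.

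Gpr174 stood at 137, 178 and 189 CPM in NKG2D+ libraries, against 159, 180 and 198 CPM in NKG2D- libraries, so the groups overlapped (log2 fold change -0.09, SE 0.14, adjusted p = 0.759). Gpr183 encodes EBI2, an oxysterol receptor that positions lymphocytes within lymphoid tissue. It stood at 64.3, 113 and 93.1 CPM in the NKG2D+ and 101, 93.9 and 98.7 CPM in the NKG2D- libraries (adjusted p = 0.760). The NKG2D- libraries lay within 10 CPM of each other and inside the wider range of the NKG2D+ libraries. For Gpr174 and Gpr183 the fold change turned slightly positive without NKG2D+ library 1.

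Gpr18 has been studied in intraepithelial T cells and stood at 42.7, 64.6 and 53.5 CPM in NKG2D+, against 68.5, 64.1 and 72.2 CPM in NKG2D- libraries. Its log2 fold change was -0.35 (SE 0.15, unadjusted p = 0.0483 and adjusted p = 0.233 by edgeR), and without NKG2D+ library 2 -0.50 (adjusted p = 0.0417). Gpr18 did not pass with any other library left out (0.303 to 0.514), with the block (0.207), by DESeq2 (0.180) or by limma-voom (0.246). Gpr171 stood at 109, 47.4 and 68.5 CPM in the NKG2D+ and 40.7, 33.8 and 40.2 CPM in the NKG2D- libraries. Its ranges did not overlap, with a log2 fold change of 0.97 (SE 0.29, adjusted p = 0.127, and 0.00563 by DESeq2). Gpr171 lies within Med12l, a low transcript that was itself higher, at 2.55 ± 0.903 CPM in NKG2D+ against 0.769 ± 0.104 CPM in NKG2D- cells (adjusted p = 0.0498). That call was lost with the block (0.0687), by limma-voom (0.111) and with some libraries left out (up to 0.238). Gpr171 passed without NKG2D+ library 2, at 1.22 (adjusted p = 0.0181), but not without NKG2D+ library 1, at 0.60 (0.0924), with the block (0.117) or by limma-voom (0.179). Gpr55, a receptor for lysophosphatidylinositol, was above its NKG2D- range in every NKG2D+ library, at 3.15 ± 0.916 CPM in the NKG2D+ and 1.49 ± 0.258 CPM in the NKG2D- cells. Its adjusted p was 0.0958, 0.0238 without NKG2D+ library 2, 0.112 with the block and 0.146 by limma-voom. Gpr35 was tested at 0.0608 to 0.220 CPM in the NKG2D+ and 0.234 to 0.428 CPM in the NKG2D- libraries.

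**Figure D4:**
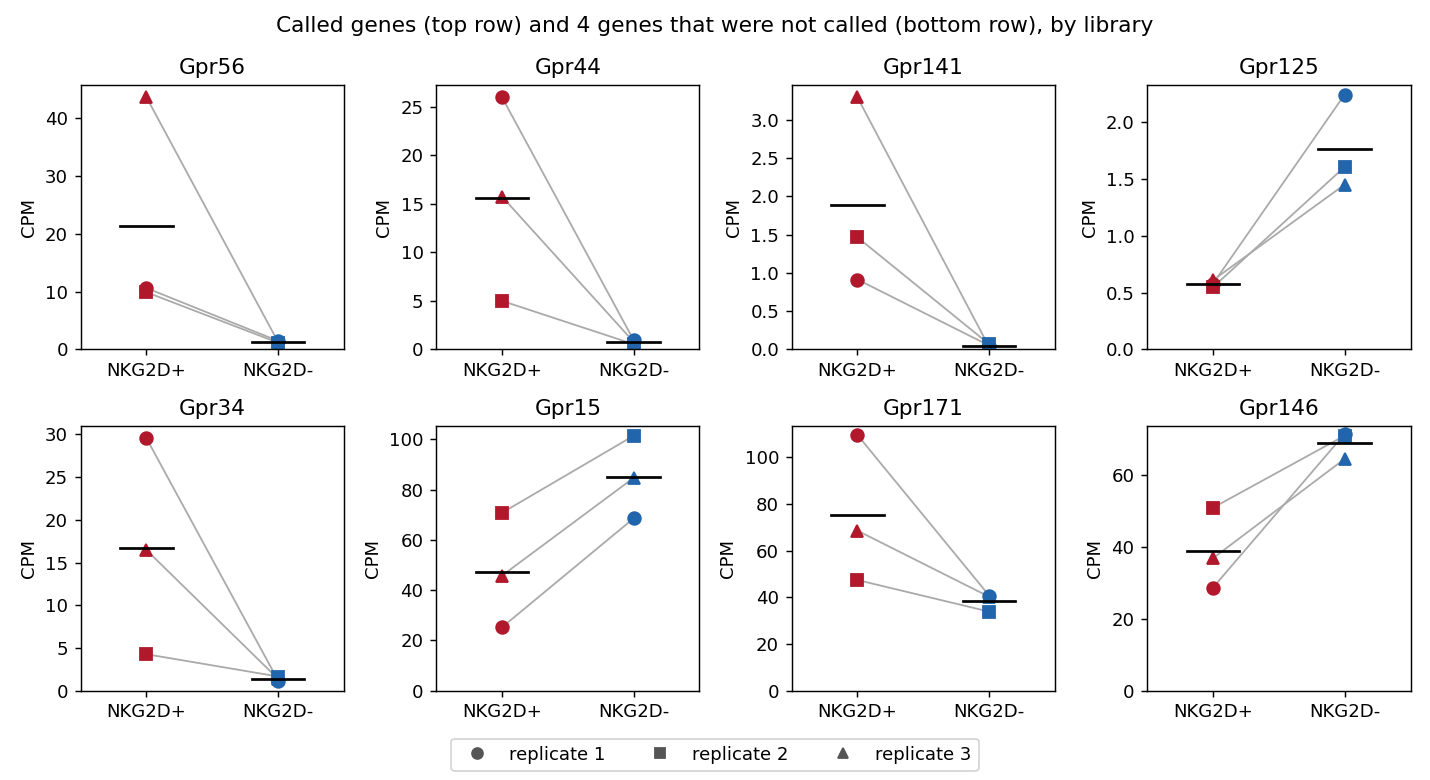
CPM per library, with NKG2D+ on the left and NKG2D- on the right of each panel, lines joining libraries of the same replicate number and black bars at the means. The top row holds the 4 genes that passed and the bottom row 4 that did not. Gpr56 and Gpr141 peak in NKG2D+ library 3, and Gpr44, Gpr34 and Gpr171 in NKG2D+ library 1.

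Gpr15, which guides T cells to the large intestine, stood at 25.2, 70.8 and 45.8 CPM in NKG2D+ libraries 1 to 3, against 68.6, 101 and 84.7 CPM in the NKG2D- libraries. The ranges overlapped, although each NKG2D+ library was below its same-numbered partner, by log2 ratios of -1.44, -0.52 and -0.89. The log2 fold change was -0.84 (SE 0.35, unadjusted p = 0.0487, adjusted p = 0.234 by edgeR, and 0.104 with the block). Gpr25, a relative of Gpr15, was under the filter, with 9, 8 and 13 counts in the NKG2D+ and 1, 1 and 0 counts in the NKG2D- libraries. From the summed counts its level was 10.5 times higher in NKG2D+ cells, with an exact 95% interval from 2.67 to 90.8 for counting error only, and it was chosen after its values were seen. Gpr77, the second receptor for complement C5a, was tested at 0.123 to 0.233 CPM in the NKG2D+ and 0.135 to 0.277 CPM in the NKG2D- libraries. Of 7 receptors in this chemoattractant-like group, which holds Gpr44 and Gpr15, 3 were tested, 1 rose and 0 fell, against the same shares of 1.65% and 0.363% of all tested genes.

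Gpr146, an orphan receptor studied in liver cholesterol metabolism, stood at 28.7, 50.9 and 36.8 CPM in NKG2D+, against 71.4, 71.0 and 64.5 CPM in NKG2D- libraries. Every NKG2D+ library was below every NKG2D- library. The log2 fold change was -0.83 (SE 0.19), and the adjusted p was 0.0841 by edgeR and 0.00112 by DESeq2. It passed at -0.65 with NKG2D+ library 1 left out (adjusted p = 0.0441) and at -1.07 with library 2 left out (adjusted p = 0.00536). It did not pass with NKG2D+ library 3 left out (0.227), with 1 NKG2D- library left out (0.207 to 0.272), with the block (0.103) or by limma-voom (0.111). Gpr179, a class C receptor known from retinal bipolar cells, averaged 1.14 ± 0.319 CPM in the NKG2D+ and 0.460 ± 0.0770 CPM in the NKG2D- cells. Its ranges did not overlap, and its adjusted p was 0.0825 by edgeR and 0.0128 by DESeq2. Gpr160, an orphan receptor, averaged 13.1 ± 1.03 CPM in the NKG2D+ and 11.2 ± 0.148 CPM in the NKG2D- cells (adjusted p = 0.268). The low transcripts Gpr19, Gpr63, Gpr157 and Gpr182 had adjusted p-values of 0.310 or more and means of 0.541 to 3.40 CPM over all 6 libraries. Gpr62 and Gpr137c were tested at 0.156 to 0.581 CPM in the NKG2D+ and 0.135 to 0.625 CPM in the NKG2D- libraries.

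A group of 9 GPR-named genes was listed here under proteins of internal membranes, with the transporter gene Gpr172b counted among them. Of these 8 were tested, and 0 passed by edgeR or DESeq2, where 2.02% and 10.5% of all tested genes passed. By edgeR 0 had an unadjusted p under 0.05, where 21.1% of all tested genes had one. With 8 genes, counts of 0 do not set this group apart from all genes. Gpr108 and Gpr107 encode Golgi-linked proteins, and stood at 59.6 ± 1.46 and 42.4 ± 8.35 CPM in the NKG2D+ and at 55.5 ± 2.72 and 37.4 ± 3.23 CPM in the NKG2D- cells. Gpr89, a regulator of Golgi acidity, averaged 32.3 ± 2.23 CPM in the NKG2D+ and 32.5 ± 1.71 CPM in the NKG2D- cells (log2 fold change -0.01, SE 0.08). Gpr155, a lysosomal cholesterol sensor, averaged 33.2 ± 12.9 in the NKG2D+ and 31.9 ± 6.57 CPM in the NKG2D- cells. Gpr180 averaged 28.6 ± 0.887 in the NKG2D+ and 26.1 ± 1.39 CPM in the NKG2D- cells, and Gpr137 averaged 13.0 ± 1.13 in the NKG2D+ and 12.3 ± 1.18 CPM in the NKG2D- cells. Gpr172b, which the RefSeq table names Slc52a2, a riboflavin transporter, stood at 24.9 ± 4.14 CPM in the NKG2D+ and 26.8 ± 0.954 CPM in the NKG2D- cells.

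The detected genes varied more among the NKG2D+ than among the NKG2D- libraries. The highest library of a group was a median of 1.75 times the lowest in NKG2D+ and 1.27 times in NKG2D- cells. This ratio was not taken over all genes, so whether it is particular to these genes was not tested. Within NKG2D+, 13 of the 33 genes were highest in library 1, 13 in library 2 and 7 in library 3. Gpr34, Gpr44, Gpr55, Gpr65 and Gpr171 were among those highest in library 1, which also had the highest B-cell and myeloid marker sums. The CD8, CD4 and regulatory, plasma cell, and gamma-delta and NKT sums were highest there too, as were Klrk1 and Cd44. Gpr15, Gpr18, Gpr146 and Gpr183 were among those highest in library 2, which had the lowest of all these sums within its group. Klrk1 and Cd44 were lowest there as well, while the NK-cell and stromal sums were highest there. Gpr56 and Gpr141 were highest in library 3. The part of other cells in these differences was not tested.

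Levels of different genes can be set side by side per kilobase of transcript, here the longest coding transcript in GENCODE M21, which is not the annotation the reads were counted on. In NKG2D+ cells Gpr18, Gpr171, Gpr183, Gpr174 and Gpr132 had means of 35.8 to 32.5 CPM per kilobase, which did not differ beyond their spread. In NKG2D- cells Gpr15 had 51.9 ± 10.04 and Gpr18 45.6 ± 2.72 CPM per kilobase (SD, n = 3 each), also within their spread. Gpr56, Gpr44 and Gpr34 stood at 5.91, 5.90 and 8.03 CPM per kilobase in NKG2D+ cells, and Gpr141 at 0.550.

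Genes of the proteins that act downstream of these receptors were counted as a list. Of 65 listed genes for G protein subunits, RGS proteins, receptor kinases, arrestins and adenylyl cyclases, 45 were tested and 0 passed by edgeR or limma-voom. By these tools 2.02% and 0.641% of all tested genes passed. An unadjusted p under 0.05 was reached by 16 of the 45, where 21.1% of all tested genes reached it. The median log2 fold change was 0.15 over the 45 and -0.01 over all tested genes. DESeq2 called 5 of the 45, a share near the 10.5% it called of all genes. These 5, chosen here after their values were seen, are given as values. Gnaq, the alpha subunit that activates phospholipase C, averaged 6.88 ± 3.43 CPM in the NKG2D+ and 2.06 ± 0.386 CPM in the NKG2D- cells (log2 fold change 1.74, adjusted p = 0.0784 by edgeR). Gnao1, another alpha subunit, averaged 1.19 ± 0.0607 CPM in the NKG2D+ and 0.512 ± 0.0620 CPM in the NKG2D- cells (adjusted p = 0.0536 by edgeR). The gamma subunit gene Gng2 stood at 209 ± 43.0 CPM in the NKG2D+ and 135 ± 20.2 CPM in the NKG2D- cells. Of the adenylyl cyclases, Adcy9 stood at 2.31 ± 0.896 in the NKG2D+ and 0.791 ± 0.360 CPM in the NKG2D- cells, and Adcy6 at 9.74 ± 1.93 in the NKG2D+ and 15.2 ± 2.66 CPM in the NKG2D- cells. Their edgeR adjusted p-values were 0.105 for Gng2, 0.111 for Adcy9 and 0.126 for Adcy6.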

How the data were processed

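The authors deposited 1 file of read counts per library, with counts for 23284 gene symbols and 5 summary counts that name no gene, which entered neither library sizes nor tests. Per the submitters' processing notes, CASAVA 1.8.2, TopHat2 2.0.4 and mm9 were used. The sources used here do not give the counting program, annotation or strand setting, and 28 of the 39 tested genes overlap another gene in the RefSeq table, so reads of such genes and of antisense partners cannot be told apart. Reads on more than 1 gene made up 0.715% to 0.836%, reads outside genes 14.0% to 15.9% and reads aligned to several places 19.7% to 26.2% of all counted reads.

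Counts were tested in R 4.3.3 with edgeR 4.0.16 (quasi-likelihood F-test, TMM, robust, legacy mode, group as the only term). filterByExpr (minimum count 10, minimum total 15) kept 12951 genes. Benjamini-Hochberg adjustment ran over all of them, with a threshold of 0.05. CPM use TMM-scaled library sizes. The standard error is the log2 fold change divided by the square root of F. The fit was tested on simulated counts with known changes. Alternatives were a replicate block, DESeq2 1.42.0, its size factors in edgeR, limma-voom (limma 3.58.1), no filter, and each library left out.

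The replicate number entered the block alternative alone. The series description names 3 separate mice but does not say which libraries share one. Same-numbered libraries were taken as pairs because their deviations from the group means correlated across genes at r = 0.25, 0.20 and 0.38 for pairs 1, 2 and 3. They also carry the same lane tag in their file names, and mouse cannot be told apart from lane. No 2 libraries of a group agreed within sampling noise (chi-square per degree of freedom of 33.5 to 194).

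Named genes were those that passed, detected genes with an unadjusted p under 0.05, and all with a mean of at least 5 CPM. Some genes that this rule takes are not reported here. Other members are given by range or count unless marked as chosen later. The members and lists were chosen with earlier results of these data known. Promoters are from RefSeq, GRCm38.p6, matched by current symbol. No coordinate was carried over to mm9.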

Additional observations from a re-analysis of the deposited data

How the results depend on the processing

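The count of GPR-named genes that passed, 4 of 39 as reported, was 1 of 39 with the replicate block (Gpr44) and 0 of 39 by limma-voom. It was 2 of 79 without the filter on low counts (Gpr141 and Gpr125). By DESeq2 it was 10 of 46, where 10.5% of all genes it tested passed. It was 4 with the size factors of DESeq2 in edgeR, and ran from 0 to 12 with 1 library left out. Over all genes the count of 261 became 68 with the replicate block, 1443 by DESeq2 and 83 by limma-voom, and ran from 8 to 1312 with 1 library left out. For the G-protein signalling genes it was 5 by DESeq2 and 0 to 5 with 1 library left out, with 5 in the fit without NKG2D+ library 2 that called 9.96% of all genes. Without the filter the adjusted p was 0.0638 for Gpr44 and 0.0935 for Gpr56. The cause of these shifts was not tested.

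Every setting was compared for the reported genes that passed, were detected with an unadjusted p under 0.05 by edgeR, or averaged at least 5 CPM. Among these, signs turned for 6 genes, none of which passed in the fits concerned. Gpr155 stood at a log2 fold change of -0.00027 with the replicate block and -0.0087 by limma-voom. With 1 library left out, log2 fold changes ran from -0.18 to 0.34 for Gpr155, from -0.24 to 0.0017 for Gpr172b and from -0.18 to 0.040 for Gpr174. They ran from -0.32 to 0.072 for Gpr183, from -0.068 to 0.24 for Gpr65 and from -0.051 to 0.046 for Gpr89. Lower transcripts outside this comparison turned as well with 1 library left out. Their log2 fold changes ran from -0.28 to 0.050 for Gpr124, from -0.66 to 0.030 for Gpr19 and from -0.048 to 0.60 for Gpr62. The range was -0.13 to 0.93 for Gpr137c, -0.37 to 0.11 for Gpr4 and -0.54 to 0.090 for Gpr77. Klrk1 passed under every setting run, at 3.19 to 3.39. With 3 libraries per group, p-values rest on few degrees of freedom. Genes under about 0.15 CPM rest on a handful of counts.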
